A study of Homo sapiens with 2 samples.

Results

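The genes described here are the 4 TEAD transcription factors (TEAD1, TEAD2, TEAD3 and TEAD4), their coactivators YAP1 and WWTR1, the kinases LATS1 and LATS2, and the inhibitors VGLL4 and AMOTL2. A region of open chromatin was taken as theirs when any of its summits lay in the annotated gene body or within 100 kb of it, which gave 263 of 160327 distinct regions for the 10 genes. H1, an established line of pluripotent human embryonic stem cells, was profiled by ATAC-seq, in which a transposase cuts and tags accessible DNA. The cells had been frozen, and after thawing they were treated with DNase I, purified on Ficoll and processed by the Omni-ATAC procedure. The 2 samples, numbered 1 and 2, form 1 group of untreated H1 cells with no other genotype or condition, and they share 1 deposited peak list. That list holds no value per sample, so no value below has a replicate error and no difference was tested over samples; whether the samples were separate cultures is not stated.

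In the Hippo pathway a kinase cascade ends in LATS1 and LATS2, which phosphorylate YAP1 and WWTR1 (also called TAZ) and so keep them out of the nucleus. Without that phosphorylation YAP1 and WWTR1 enter the nucleus and bind TEAD proteins, which recognise the sequence GGAATG and activate genes such as CCN2. VGLL4 competes with YAP1 for TEAD proteins, and AMOTL2, an angiomotin family protein, binds YAP1 in the cytoplasm. In embryonic stem cells the pathway is known for its link to cell density and survival.

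At 3 of the 4 TEAD genes the promoter summit had at least 2 copies of the TEAD motif within 50 bp, and in TEAD1 it fell on the first base of one of them. The runs of 30 bases below are shown because they hold those copies, which are in capitals and read CATTCC, the motif on the other strand. They were read from hg38 on the strand of each gene, from position -15 to 14 relative to the start of the canonical transcript in TEAD1 (chr11:12674406-12674435, plus strand) and TEAD4 (chr12:2959382-2959411, plus strand) and from position 51 to 80 in TEAD3 (chr6:35496999-35497028, minus strand), where the start itself is position 0.
TEAD1: ttCATTCCtgtcctCATTCCgaacattctt
TEAD4: ctCATTCCagccctCATTCCgcgCATTCCa
TEAD3: gctccagcccggctCATTCCgcaCATTCCg

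In TEAD1 the copies began at positions -13 and -1, with 6 bases between them. In TEAD4 copies began at the same positions, -13 and -1, and a further one began at 8, so that the gaps were 6 and 3 bases. TEAD1 carried CATTCT at position 8, which differs from the motif in its last letter only. In TEAD3 the pair began at 65 and 74, again 3 bases apart. The runs had been placed so that the TEAD3 pair stood under positions -1 and 8 of TEAD4 and TEAD1. Over the 30 bases TEAD1 and TEAD4 shared 23 letters, TEAD3 and TEAD4 shared 17, and TEAD1 and TEAD3 shared 16. These counts include the letters of the copies, which match through that placement, and likeness outside the copies was not counted. The summit lay at position -13 in TEAD1, -36 in TEAD4 and 53 in TEAD3. The promoter summit of TEAD2, at position -24, had no copy within 50 bp.

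This arrangement was rare among the open regions. The search and its spacings were chosen after the values had been seen, so the counts are descriptions. At least 2 copies within 50 bp of the strongest summit were found in 4 of the 42 member regions at the 5′ end of any gene (9.52%), against 60 of 20977 such regions in the whole list (0.286%). The 4 lay at TEAD1, TEAD3, TEAD4 and, in the AMOTL2 window, the long noncoding RNA gene LINC02004. At least 3 copies were found in 2 of those 42, against 9 of the 20977 (0.0429%). Copies in the same orientation 6 bases apart were found at 2 of the 20977 promoter regions, and these were TEAD1 and TEAD4. Copies in the same orientation 3 bases apart were found at 7 of them, which lay at TEAD3, TEAD4, CCN2, NECTIN2, ERC2, LINC01082 and ST13P16. Among all 160327 regions the 6-base gap occurred 21 times, the 3-base gap 109 times, and both gaps in one array 1 time, at TEAD4. CCN2 encodes a secreted matrix protein and is widely used as a readout of YAP activity. Its window is shown beside the TEAD genes because it has the same 3-base gap, on the other strand. It runs over 101 bases centred on a summit of fold 10.6 at position -87 (chr6:131951409-131951509, minus strand), with the motif in capitals.
CCN2: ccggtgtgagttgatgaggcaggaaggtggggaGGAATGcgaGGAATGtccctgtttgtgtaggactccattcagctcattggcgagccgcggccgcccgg

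Away from the starts of the member genes, motif copies stood singly at most regions that had any. The AMOTL2 window below lies at the 5′ end of LINC02004. The next windows, each of 101 bases centred on the strongest summit of a region and read on the strand of the gene, are the ones to which the later results refer, again with TEAD motifs in capitals. They are the strong region upstream of TEAD2 (chr19:49363634-49363734, minus strand), the region at a coding exon of TEAD1 (chr11:12864846-12864946, plus strand), the outermost upstream region of YAP1 (chr11:102011229-102011329, plus strand, with an AP-1 motif TGANTCA also in capitals), the strongest region of YAP1 (chr11:102197868-102197968, plus strand), the downstream region of WWTR1 with 2 copies (chr3:149466343-149466443, minus strand) and the downstream region of AMOTL2 with 3 copies (chr3:134313423-134313523, minus strand).
TEAD2 upstream: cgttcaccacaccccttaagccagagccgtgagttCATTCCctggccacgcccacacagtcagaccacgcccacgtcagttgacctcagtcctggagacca
TEAD1 exon: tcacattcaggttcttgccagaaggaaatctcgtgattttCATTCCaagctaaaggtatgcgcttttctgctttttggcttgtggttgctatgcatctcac
YAP1 upstream: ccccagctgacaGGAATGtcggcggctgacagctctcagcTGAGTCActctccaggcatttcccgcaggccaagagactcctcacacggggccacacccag
YAP1 strongest: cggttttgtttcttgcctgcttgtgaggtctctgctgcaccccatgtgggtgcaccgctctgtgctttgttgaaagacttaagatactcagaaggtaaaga
WWTR1 downstream: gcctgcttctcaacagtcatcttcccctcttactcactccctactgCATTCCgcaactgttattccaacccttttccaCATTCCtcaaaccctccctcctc
AMOTL2 downstream: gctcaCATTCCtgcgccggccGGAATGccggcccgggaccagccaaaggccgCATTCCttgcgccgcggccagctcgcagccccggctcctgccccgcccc

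All 10 genes were open at their starts. A summit lay within 1000 bp of the canonical start in 10 of 10 genes, against 76.8% of 20033 protein-coding genes, so most genes in these cells share this property. The fold, which is the authors' enrichment of a summit over a background they do not describe, served to rank summits within the list. Where several summits lay within 1000 bp of a start, the highest fold is given as the promoter fold. The median promoter fold was 8.19 over the 10 genes, against 7.72 over all protein-coding genes and 9.46 over those with a promoter summit. The genes fell into no single level, since their promoter folds ran from 3.39 at TEAD2 to 10.7 at VGLL4. The promoter regions were broad, with a median width of 1700 bp and 4.5 summits, against 1112 bp and 3 summits over all protein-coding genes with one. In bulk chromatin, a lower share of cells with a region open and a less accessible region in each cell cannot be told apart.

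**Figure D1:**
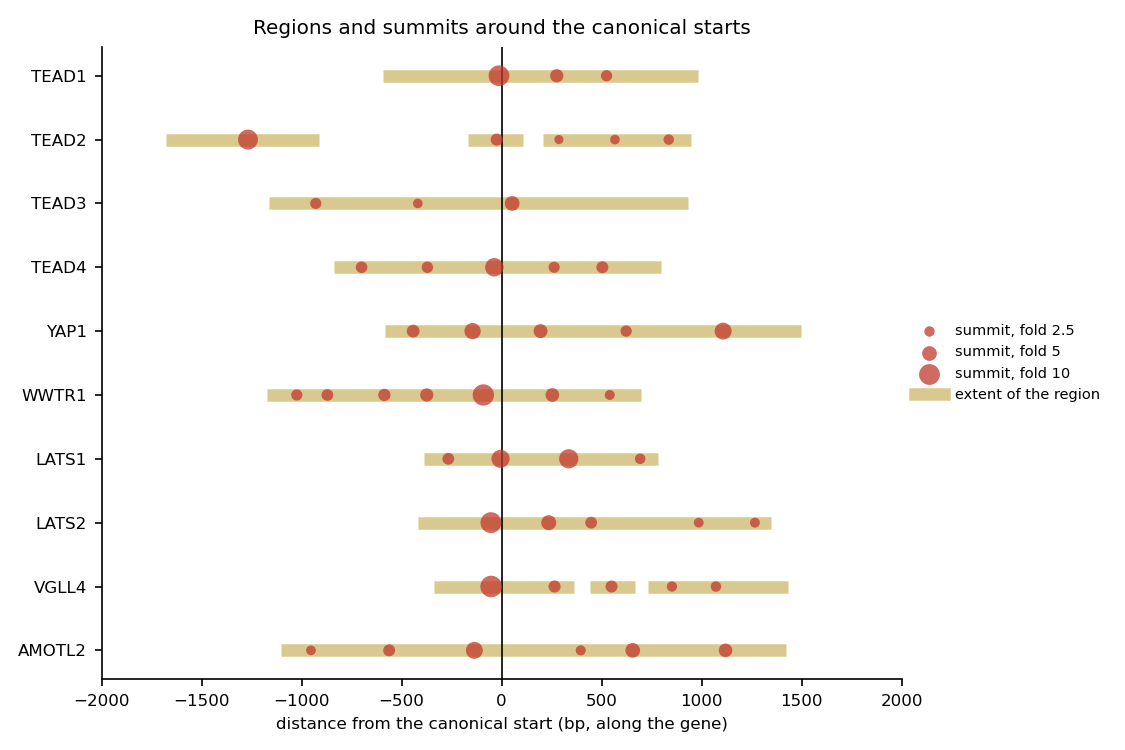
Regions (bars) and their summits (points, area by fold) around the canonical start of each of the 10 genes, with the distance from the start in bp along the gene on the horizontal axis. TEAD2 has a region of 278 bp at its start, one of 742 bp just inside the gene and a stronger one further upstream. The AMOTL2 region spans 2529 bp.

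Among the TEAD genes, TEAD1 had the strongest promoter and TEAD2 the weakest. TEAD1 (chr11:12674421-12944737, plus strand) had a promoter fold of 9.83 in a region of 1574 bp. TEAD4 (chr12:2959330-3040676, plus strand), known in mice as the factor that trophectoderm needs, had 7.84 in a region of 1635 bp. TEAD3 (chr6:35473597-35497079, minus strand) had 5.01, although its region of 2093 bp was wider than those of 98.3% of the open protein-coding promoters. TEAD2 (chr19:49340595-49362457, minus strand), whose mouse counterpart is transcribed in the earliest embryo, had 3.39 in a region of 278 bp, which put its fold at the 4.00th percentile and its width at the 1.64th percentile of open protein-coding promoters. A second region, of 742 bp with 3 summits and a fold of at most 2.52, lay just inside the gene, from position 205 to 946. The low width is therefore that of the region at the start alone. Both regions also lie within 1000 bp of the 5′ end of the neighbouring gene DKKL1. A stronger region with fold 9.14 stood upstream at position -1268, outside the promoter window and inside DKKL1 (chr19:49363327-49364096), and its summit window holds 1 TEAD motif. In TEAD2 19 of 24 regions had a higher fold than the promoter, in TEAD3 10 of 22, in TEAD1 8 of 36 and in TEAD4 6 of 22.

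Along the body of TEAD1, 25 of its 36 regions lay between the annotated ends of the gene, with 6 upstream and 5 downstream. Introns 2 and 3 of the canonical transcript held 8 regions each. The strongest, with fold 14.0, lay in intron 10 (chr11:12913849-12914976), and the next, with fold 12.6, in intron 2 (chr11:12724410-12725107). A region of fold 11.1 was centred on coding exon 5 (chr11:12864383-12865216) and held a TEAD motif from position -10 to -5 relative to its summit. The smaller TEAD genes were surrounded by other genes, and fewer of their regions lay in the gene body, with 3 of 24 in TEAD2, 5 of 22 in TEAD3 and 6 of 22 in TEAD4. Per 100 kb of gene body there were 13.7 regions in TEAD2, 21.3 in TEAD3 and 7.38 in TEAD4, against 9.25 in TEAD1. The strongest region in the TEAD3 window, of fold 12.6, was the promoter of FANCE, a DNA repair gene. At TEAD4 the strongest was a region of fold 13.7 in TULP3, 68.5 kb upstream of the gene (chr12:2890193-2891600). A region of fold 12.9 with a TEAD motif lay 14.5 kb upstream of TEAD4 in no annotated gene (chr12:2944446-2945096). The TEAD2 window reached a fold of 13.5 in KASH5, 41.5 kb upstream (chr19:49403470-49404276).

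The coactivators had strong regions far from their starts. YAP1 (chr11:102110447-102233424, plus strand) had a promoter fold of 6.13 in a region of 2083 bp with 5 summits, and the strongest of these, with fold 6.65, lay 1108 bp into the gene. Of its other 35 regions 16 had a higher fold than the promoter. The strongest of all 263 regions lay in intron 4 of YAP1, with fold 20.3 (chr11:102197527-102198172), and its summit window, shown above, matched none of the 16 motifs searched. A region 35.4 kb downstream of the gene had fold 19.9 (chr11:102268307-102269020), and one 99.2 kb upstream had fold 18.4 and carried a TEAD and an AP-1 motif (chr11:102010943-102011437). These 3 regions ranked above 99% of the list by fold, at the 99.6th, 99.6th and 99.1st percentiles. A region of fold 14.6 lay in intron 5 of YAP1 (chr11:102208887-102209472).

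WWTR1 (chr3:149517235-149736714, minus strand) had the most regions of the 10 genes, 41, of which 21 lay in the gene body. Its canonical start had a promoter fold of 10.5 in a region of 1871 bp with 7 summits. A stronger region, of fold 16.5, stood at an alternative start, at position -12916 (chr3:149670401-149671503). The outermost annotated 5′ end of WWTR1 had no summit within 1000 bp. The other strong regions of the window were the promoter of COMMD2 with fold 16.0, a region inside TM4SF4 with fold 15.9, 36.7 kb downstream of WWTR1 (chr3:149480389-149480731), and intron 4 of WWTR1 itself with fold 14.2 (chr3:149536340-149536909). WWTR1 and TEAD1 had 7 regions each with the TEAD motif.

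**Figure D2:**
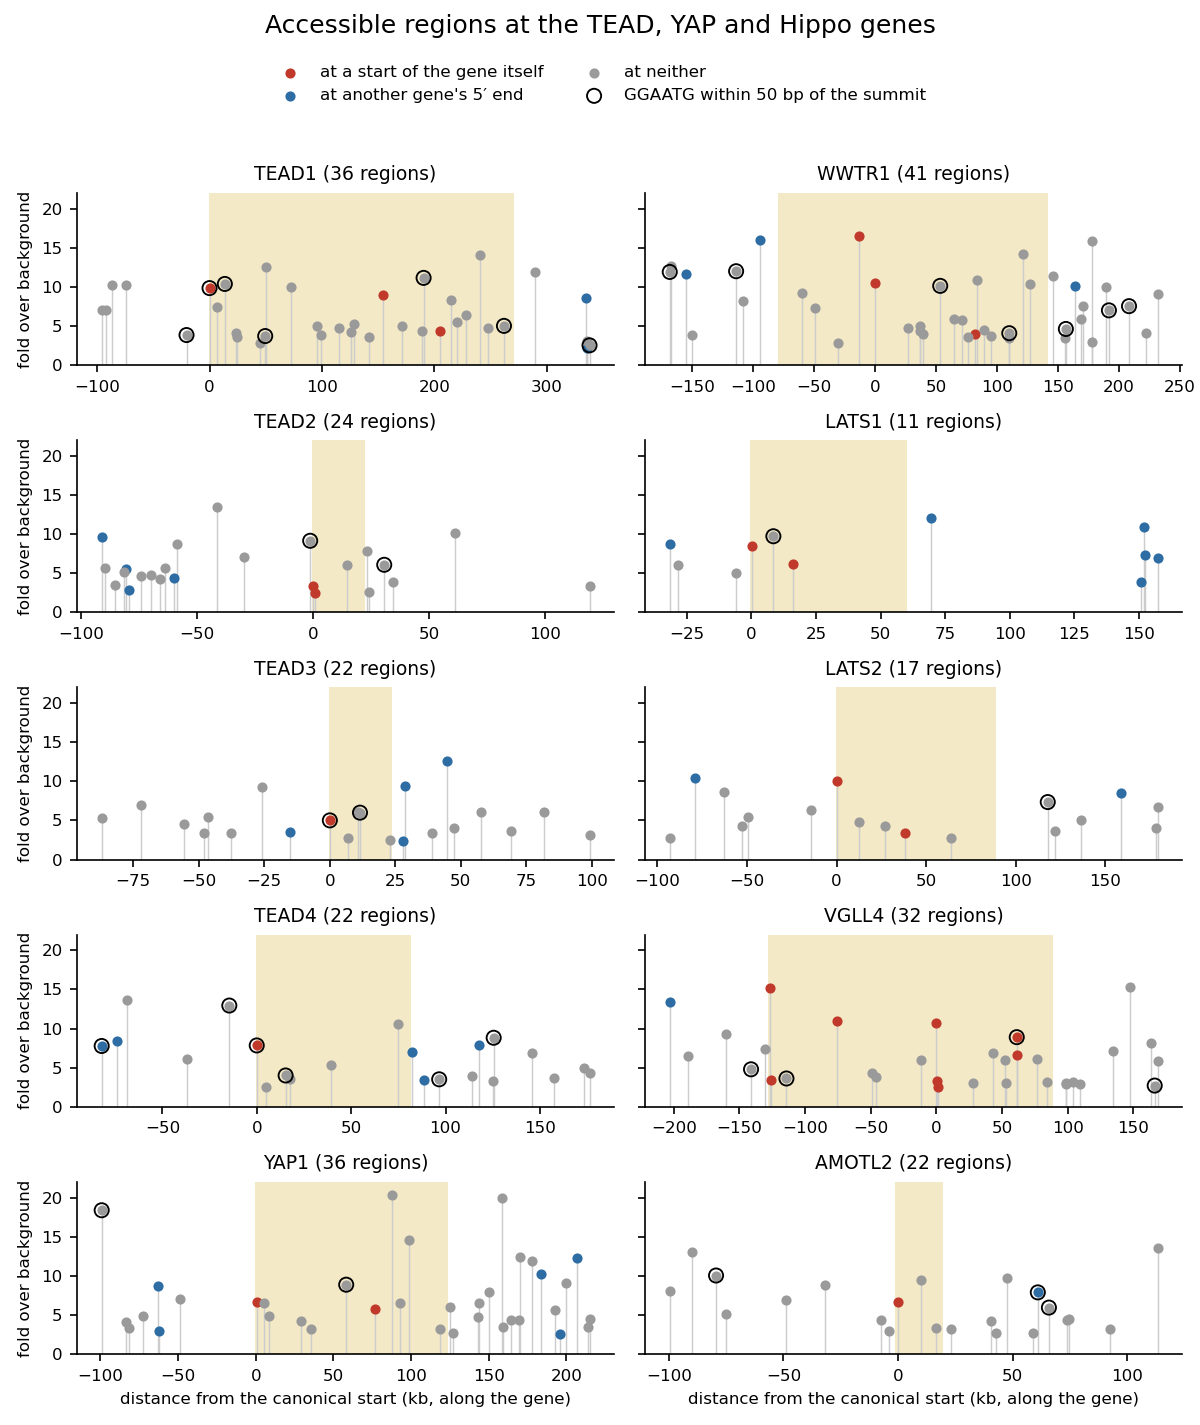
Fold of the strongest summit of each of the 263 regions (points) against its distance from the canonical start in kb along the gene, 1 panel per gene, with the gene body shaded. Red points are regions with any summit at a start of the gene itself, blue points others at the 5′ end of another gene, grey points those at neither, and rings mark a TEAD motif within 50 bp of the summit; the 3 highest points, with folds of 20.3, 19.9 and 18.4, are all in the YAP1 panel.

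The kinase genes stood in the sparsest windows. LATS1 (chr6:149658153-149718105, minus strand) had 11 regions, or 4.23 per 100 kb, and LATS2 (chr13:20973036-21061586, minus strand) had 17, or 5.89 per 100 kb, against a median of 6.42 over all protein-coding genes. Their starts were open all the same, with promoter folds of 8.53 at LATS1 and 10.0 at LATS2. Of the 11 LATS1 regions 2 lay at its own starts, 6 at the 5′ ends of other genes and 3 at neither. The strongest of the window, of fold 12.1, was the promoter of KATNA1, which encodes a microtubule-severing subunit. Inside LATS1 there was a region of fold 9.72 with 1 TEAD motif in intron 1 (chr6:149708776-149709786) and one of fold 6.12 over coding exon 2, where a transcript start is annotated (chr6:149701668-149702261). At LATS2 the promoter region was surpassed by 1 of the other 16 regions, the promoter of SAP18 with fold 10.4. The 4 regions within LATS2 were weaker than its promoter, with 1 in intron 1 at fold 4.82 and 3 in intron 2 of at most 4.31.

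VGLL4 and AMOTL2 differed in how many regions covered their starts. VGLL4 (chr3:11556069-11771350, minus strand) had 8 regions with a summit within 1000 bp of one of its annotated starts, the most of the 10 genes. It also had the most annotated starts, 18, of which 10 had a summit. The outermost start had fold 15.2 (chr3:11770498-11771206), a start between the outermost and the canonical one fold 11.0 (chr3:11718955-11720887) and the canonical start fold 10.7 (chr3:11643553-11644253), and a further start in intron 2 had fold 8.90 with 1 TEAD motif (chr3:11582634-11583119). The highest fold in its window, 15.3, belonged to a region in ATG7, 59.8 kb downstream (chr3:11495979-11496637). AMOTL2 (chr3:134355347-134375479, minus strand) had 1 region at its starts, which covered 2529 bp with 6 summits and was wider than those of 99.8% of open protein-coding promoters, at a fold of 6.62. Summits of this region lay within 1000 bp of 10 of the 12 annotated starts of AMOTL2. Its strongest regions lay 94.1 kb downstream with fold 13.5 (chr3:134260862-134261408) and 88.8 kb upstream with fold 13.0 (chr3:134463644-134465104). A region of fold 7.88 at the 5′ end of the long noncoding RNA gene LINC02004, 41.9 kb downstream of AMOTL2, held the 3 TEAD motifs shown above, of which 2 read CATTCC and 1 read GGAATG along the strand of AMOTL2.

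**Figure D3:**
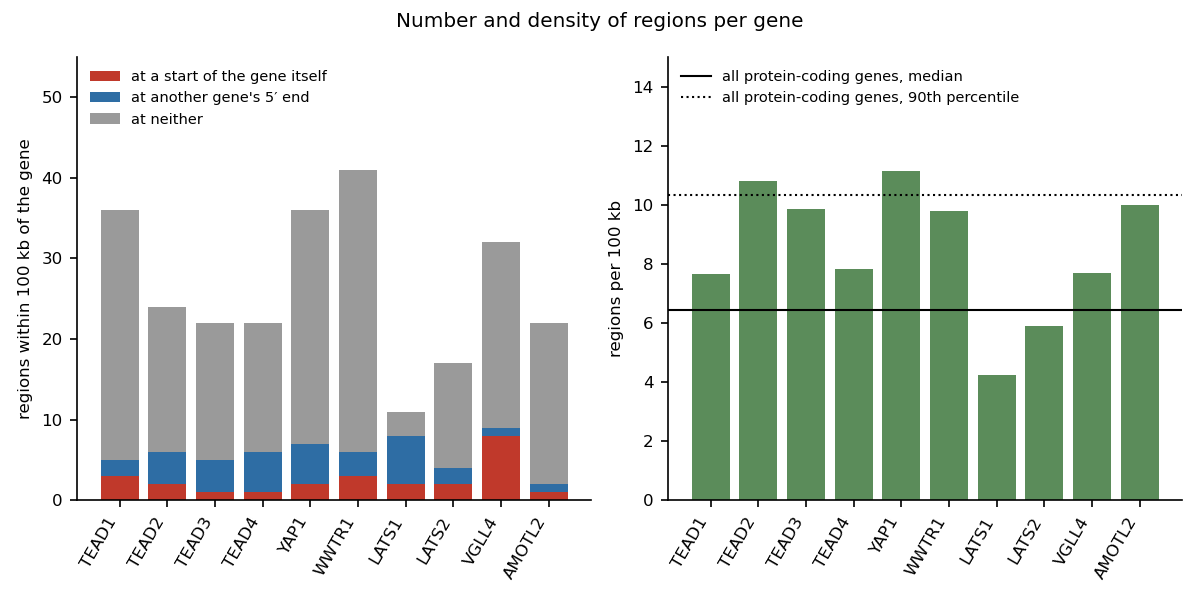
Left, number of regions per gene, split into those with any summit at a start of the gene itself, the others whose strongest summit lies at the 5′ end of another gene, and the rest; right, regions per 100 kb of gene body and flanks, with the median and the 90th percentile of all protein-coding genes as lines. YAP1 and TEAD2 exceed the 90th percentile of 10.3 regions per 100 kb, and LATS1 and LATS2 lie below the median of 6.42.

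By density the order was YAP1 at 11.1 regions per 100 kb, TEAD2 at 10.8, AMOTL2 at 9.99, TEAD3 at 9.84, WWTR1 at 9.77, TEAD4 at 7.82, VGLL4 at 7.71, TEAD1 at 7.65, LATS2 at 5.89 and LATS1 at 4.23. Neighbours in this order cannot be separated without values per sample. Of the 263 regions 99 had their strongest summit in the gene body, 71 upstream and 93 downstream. Of the 263, 25 had a summit within 1000 bp of an annotated start of the gene itself, 33 others lay at the 5′ end of another gene, and 205 at neither. Within the canonical transcripts 79 regions were intronic, of which 9 were in first introns, 2 were in coding exons, 1 in a 5′ UTR and 1 in a 3′ UTR. For 101 regions the nearest protein-coding 5′ end was that of the gene in whose window they lay, so most of them lay nearer to the 5′ end of another protein-coding gene. The outermost regions inside the 100 kb limit were at 97.3 kb from TEAD2 with fold 3.30, at 98.6 kb from AMOTL2 with fold 8.06 and at 99.2 kb from YAP1 with fold 18.4. The nearest beyond it were at 101 kb and 102 kb from TEAD4 with folds 2.86 and 6.76, and at 102 kb from YAP1 with fold 4.92.

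As a group the 263 regions were close to the rest of the list. Their median fold was 5.70, against 5.38 over all 160327 regions, and their median width 485 bp, against 447 bp. A fold above the 90th percentile of the list was reached by 26 regions, or 9.89%, against 10.0% of all regions. A single summit was present in 66.2%, against 69.3%. At the 5′ end of any gene lay 42 regions, or 16.0% (95% exact binomial interval 11.8 to 21.0), against 13.1% of all regions. Their summit windows were richer in G and C, with a median of 56.4%, against 51.5%. The intervals given here treat regions as independent and cover counting error only.

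The TEAD motif was about as frequent at these regions as elsewhere. It was present on either strand within 50 bp of the strongest summit in 35 of 263 regions, or 13.3% (95% exact binomial interval 9.45 to 18.0), against 11.0% of all regions, which lies inside the interval. The same letters written backwards, GTAAGG, were present in 7 regions, or 2.66%, against 3.28%. The 35 regions held 42 copies, and in 18 of them a copy was centred within 25 bp of the summit. That distance was not counted over all regions with the motif, so the 18 do not show that copies gather at summits. Regions with the motif had a median fold of 7.53 and those without it 5.47 among the members, against 5.31 with it and 5.40 without it in the whole list. At the 5′ end of any gene the member medians went the other way, 7.84 with the motif, in 5 regions, and 8.48 without it. Outside gene 5′ ends they were 7.17 and 5.11. No interval was computed for these medians. TEAD4 had the largest share of regions with the motif, 6 of 22, and YAP1 the smallest, 2 of 36. A match describes the letters and does not show that a TEAD protein was bound.

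**Figure D4:**
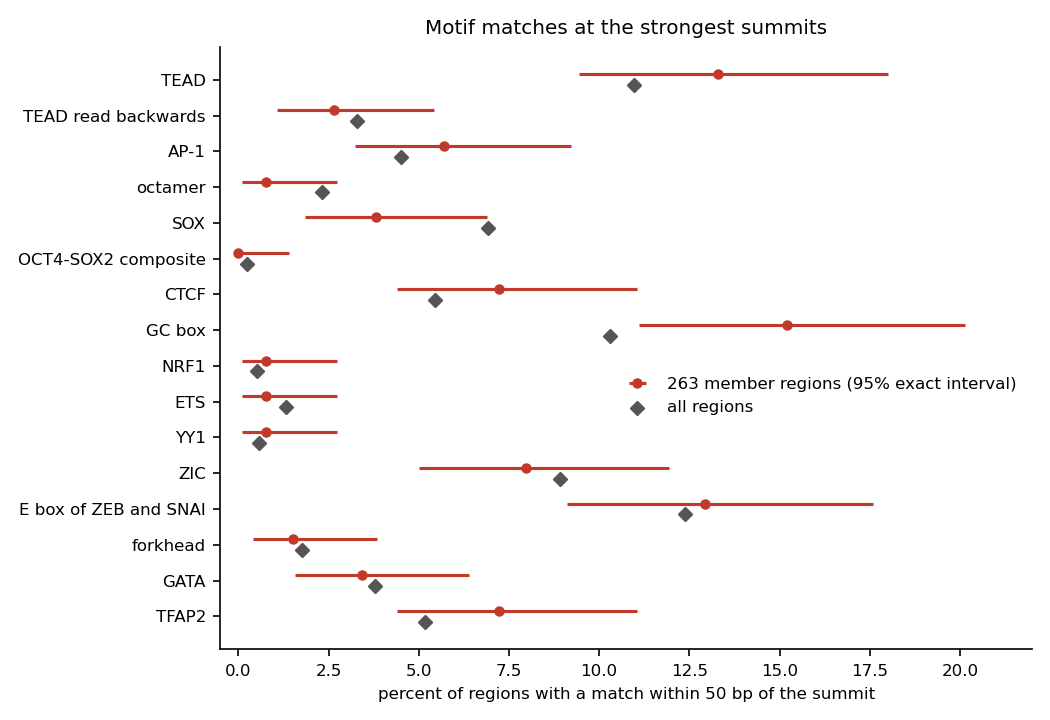
Percent of regions with a match to each of 16 motifs on either strand within 50 bp of the strongest summit, for the 263 member regions (red points with 95% exact binomial intervals) and for all regions (grey diamonds). The TEAD share of 13.3% has an interval that includes the 11.0% of all regions, while the GC box share of 15.2% has an interval above the 10.3% of all regions. More of the GC box regions lie in the TEAD2 window than in any other.

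Of the 16 motifs, the GC box and the SOX motif were those whose interval at the member regions left out the share of all regions, the GC box being higher and the SOX motif lower. The intervals were not adjusted for the 16 motifs looked at, and they treat regions of the same window as independent. Counting error alone can therefore make some of them leave out the share of the list. The composite OCT4-SOX2 motif occurred at 0 of 263 regions (95% exact binomial interval 0 to 1.39%), against 0.240% of all regions. The octamer ATGCAAAT occurred at 2 regions, or 0.760% (interval 0.0922 to 2.72), against 2.31%, and the SOX motif CATTGT at 10, or 3.80% (interval 1.84 to 6.88), against 6.93%. Outside gene 5′ ends the SOX motif was present at 9 of 221 member regions, or 4.07% (interval 1.88 to 7.59), an interval that includes the 7.51% of such regions in the list. This set is defined by outermost gene ends and strongest summits. It therefore includes the regions at the canonical starts of YAP1, WWTR1 and VGLL4, and the YAP1 region has the SOX motif. The GC box GGGCGG, which Sp1 family proteins bind, occurred at 40 regions, or 15.2% (interval 11.1 to 20.1), against 10.3%. Outside gene 5′ ends the GC box was present at 22 of 221 member regions, or 9.95% (interval 6.34 to 14.7), against 6.06% of such regions in the list. In both counts the TEAD2 window held more of the GC box regions than any other window. Most regions of that window had the GC box, and the share without it was not computed, so the higher share is not a trait of all 10 genes. The AP-1 motif TGANTCA, whose factors often share regions with TEAD proteins, occurred at 15 regions, or 5.70%, against 4.50%, and CTCF at 19, or 7.22%, against 5.46%. The higher G and C content given above moves with the GC box share, and its part in that share was not tested.

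The other genes of the pathway were also open at their starts. Of 51 genes searched, 49 had a promoter summit, beside 76.8% of all protein-coding genes. Upstream of YAP1, 28 of 29 genes of kinases, scaffolds, polarity proteins and other regulators did, with the highest folds at STK3 (17.4), which encodes the kinase MST2, NF2 (15.8), which encodes the scaffold merlin, and MOB1A (15.6), a LATS cofactor. RASSF1 was the exception, with no summit within 1000 bp of its canonical start and a fold of 10.0 at another start. The windows of STK3 with 61 regions, the phosphatase gene PTPN14 with 47 and BTRC, a ubiquitin ligase subunit that targets YAP1, with 34 held the most. Among the VGLL cofactors VGLL3 had a promoter fold of 10.5 and VGLL2 5.72, and VGLL1 had no summit at any annotated start. VGLL3 had the TEAD motif at 8 of its 21 regions. All 19 genes known as YAP and TEAD targets had a promoter summit, with the highest folds at NT5E (14.5), which encodes the ectonucleotidase CD73, GADD45A (14.3), a stress response gene, and CCN2 (10.6). The most regions were at RBMS3 with 116, ASAP1 with 50 and CRIM1 with 47. The TEAD motif was present at 63 of 672 regions of the upstream genes (9.38%) and at 71 of 551 of the targets (12.9%), against 11.0% of the whole list. At VGLL1, VGLL2 and VGLL3 together it was present at 13 of 49 regions (26.5%), with 0 of 8 at VGLL1. VGLL4, counted among the 10 members, had it at 4 of 32 (12.5%). The median promoter fold was 8.78 for the upstream genes and 6.88 for the targets, beside 8.19 for the 10 members and 7.72 for all protein-coding genes.

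**Figure D5:**
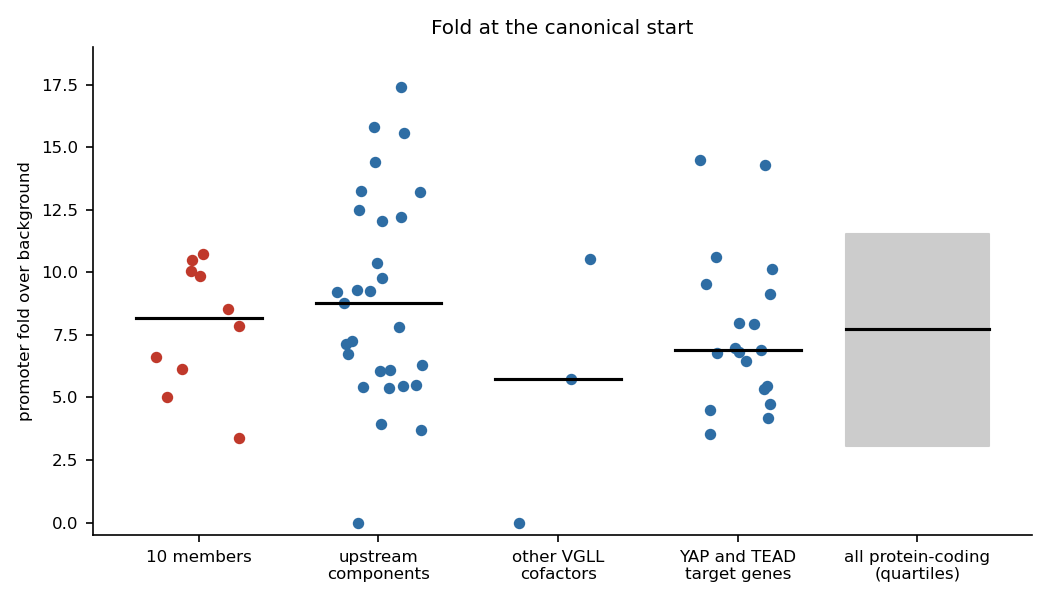
Promoter fold of each of the 10 members, of the other upstream components, VGLL cofactors and target genes (points, with 0 where no summit lay within 1000 bp of the canonical start; lines are medians), and the quartiles and median of all protein-coding genes (grey box and line). The members lie between 3.39 and 10.7, within a range that the upstream genes exceed at STK3 with 17.4. The grey box counts genes without a promoter summit as 0, and the median of protein-coding genes with one is 9.46.

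Marker genes said little about the label of the cells, since 76.8% of all protein-coding genes had a promoter summit. Of 10 pluripotency genes 9 had one, and POU5F1 had a summit of fold 5.54 at an annotated start other than the canonical one. Of 5 trophoblast markers 1 did, GATA3, with fold 2.34 at the canonical start and 5.20 at another annotated start. Of 5 fibroblast markers 4 did, with folds from 4.24 to 8.26, while COL3A1 had none. Within 500 bp of the canonical start COL1A1 had no summit and DCN had a fold of 3.83. An open start does not show that a gene is transcribed, and the part of other cell types in the list was not tested.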

How the data were processed

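ATAC-seq of 2 samples of H1 cells gave 1 deposited peak list in genome build GRCh38 per the submitters' processing notes. The aligner was not given in the sources used here, nor were the caller, its settings or the depth. Each of the 236878 entries of the deposited list is a summit, with the authors' score, fold enrichment (a ratio), −log10 p and −log10 q, and the summit's offset in bases. The units follow the narrowPeak layout, and the score and −log10 q were not used. Entries with the same ends were merged into 1 region, which takes the values of its highest summit by fold. Genes, canonical transcripts and starts came from GENCODE release 44, and sequence from hg38, whose 24 chromosomes matched the list. A promoter summit lay within 1000 bp of the canonical start. For counts of regions at the 5′ end of any gene, the outermost annotated end was used. Motifs were searched as letters on both strands in 101 bp around the strongest summit, and overlapping matches were counted; the OCT4-SOX2, CTCF and NRF1 motifs are longer and given by name. Regions and motif positions were computed with python 3.11.15, pandas 2.3.3, numpy 2.4.6 and pysam 0.24.0, exact binomial (Clopper-Pearson, 95%) intervals with scipy 1.17.1, and figures with matplotlib 3.10.9. Scripts were tested on simulated data. With 1 list for both samples no test over samples was possible, and percentiles are ranks in the list.

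The members and gene lists were chosen with earlier results of these data known. Named by rule were all 10 members, their regions at annotated starts, the strongest elsewhere and the strongest with the TEAD motif, and in each other list the top 3 by promoter fold, the top 3 by number of regions and up to 5 without a promoter summit. The spacing search and CCN2's window were added after the values were seen. Other distances, starts, summit choices and a −log10 p filter were tried as alternatives.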

Additional observations from a re-analysis of the deposited data

How the results depend on the processing

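Counting summits in the gene bodies alone gave 101 regions, and keeping summits with −log10 p above the list's median gave 169, in place of 263. Widening the motif search to 100 bp raised the TEAD share to 22.4% of member regions, against 18.0% of all regions, and searching whole regions raised it to 38.0%, against 32.8%. With every summit counted the median fold was 4.47. The share at the 5′ end of a gene was 11.4% within 500 bp, and 25.1% when any annotated transcript start counted. The other alternatives tried left each value within 1.5 times its count or inside its interval. Among them, 9 of 10 genes had a promoter summit under the outermost 5′ end, where WWTR1 had none, and with the strongest summit of each region alone, where YAP1 had none. No replicate could be left out. No paired analysis was possible because the 2 samples share 1 peak list with no value per sample.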
